A study of Mus musculus with 10 samples.

Results

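The 42 genes described here are macrophage and monocyte genes: lysosomal and surface identity genes, the CSF1 axis with 2 transcription factors, Fc receptors, lipid-associated genes, receptors for apoptotic cells, genes of alternatively activated and resident macrophages, costimulatory and inhibitory receptors, and C-type lectins. They were chosen by gene symbol, with earlier results of these data known. All 42 were found among the 55421 gene IDs of the deposited table. All 42 also passed the filter on low counts, which kept 18509 genes for testing. The RNA came from ulcer tissue of db/db mice, which lack a working leptin receptor and become obese and diabetic, and whose wounds had been made by surgical resection. The 5 ointment libraries came from ulcers labelled as given saline and Fu Huang ointment, a topical preparation, and the 5 saline libraries from ulcers given saline alone. Both groups therefore shared the strain, the wound and the saline, and the design text gives 7 days of administration. Neither the age nor the sex of the mice is stated. The labels also leave unsaid whether the 5 libraries of a group stand for 5 mice, and the p-values then reflect library-to-library spread, part of which may be technical.

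Macrophages of a skin wound are partly resident cells and partly descendants of blood monocytes that enter the tissue after injury. They take up bacteria, dead cells and debris through Fc receptors, lectins and receptors for phosphatidylserine, and digest them in lysosomes. CSF1 acting on its receptor keeps them alive, and the factor PU.1 sets up much of their gene program. In diabetic wounds macrophages are known for a prolonged inflammatory state.

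The summed counts per library ran from 47807353 to 62896034 in the ointment group and from 58145331 to 62664018 in the saline group. Levels are counts scaled to the library total after TMM correction (CPM). Differences are log2 fold changes from edgeR's quasi-likelihood test, ointment minus saline, with Benjamini-Hochberg adjustment over all 18509 genes and a threshold of 0.05. The deposited values are whole numbers but behave as estimates, and a few genes change level abruptly from library to library, which is stated where it touches a member.

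Of the 42 genes, 4 rose in ointment ulcers (9.52% of the members, against 0.692% of all genes tested): Adgre1, Cd68, Cd84 and Trem2. None fell (0.983% of all genes tested did), and 38 did not pass the test. Because the members were chosen with earlier results of these data known, such shares describe the list and do not test it. In the ointment libraries these 4 genes stood between 1.71-fold and 1.89-fold the saline level. A further 7 members had adjusted p-values from 0.05 to 0.1 in edgeR's quasi-likelihood test. At an unadjusted p under 0.05 there were 25 members on the higher side (59.5%, against 8.59% of all genes) and 1, Retnla, on the lower side (2.38%, against 8.56%). The log2 fold change was above 0 for 37 members (88.1%, against 49.7% of all genes), with a median of 0.77 over the members and -0.0025 over all genes tested. In 13 members (31%, against 3.11% of all genes) every ointment library was above every saline library, and in no member was every ointment library below (3.44% of all genes). DESeq2's Wald test called 21 members higher and none lower, where it called 4.83% of the genes to which it gave an adjusted p higher and 4.47% lower, and limma with voom called 6 higher and none lower, where it called 0.816% of all genes higher and 1.11% lower. The 21 members that DESeq2 called were the 4 above with Cd53, Csf1r, Spi1, Fcer1g, Fcgr1, Fcgr2b, Fcgr3, Fcgr4, Tyrobp, Lgals3, Chil3, Clec10a, Pdcd1lg2, Folr2, Vsig4, Lilrb4a and Clec12a, and the 6 that limma called were the 4 above with Chil3 and Clec10a. Below, a gene is said to rise, fall or pass only by edgeR's test. In bulk tissue, more macrophages and more RNA per macrophage cannot be told apart.

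**Figure D1:**
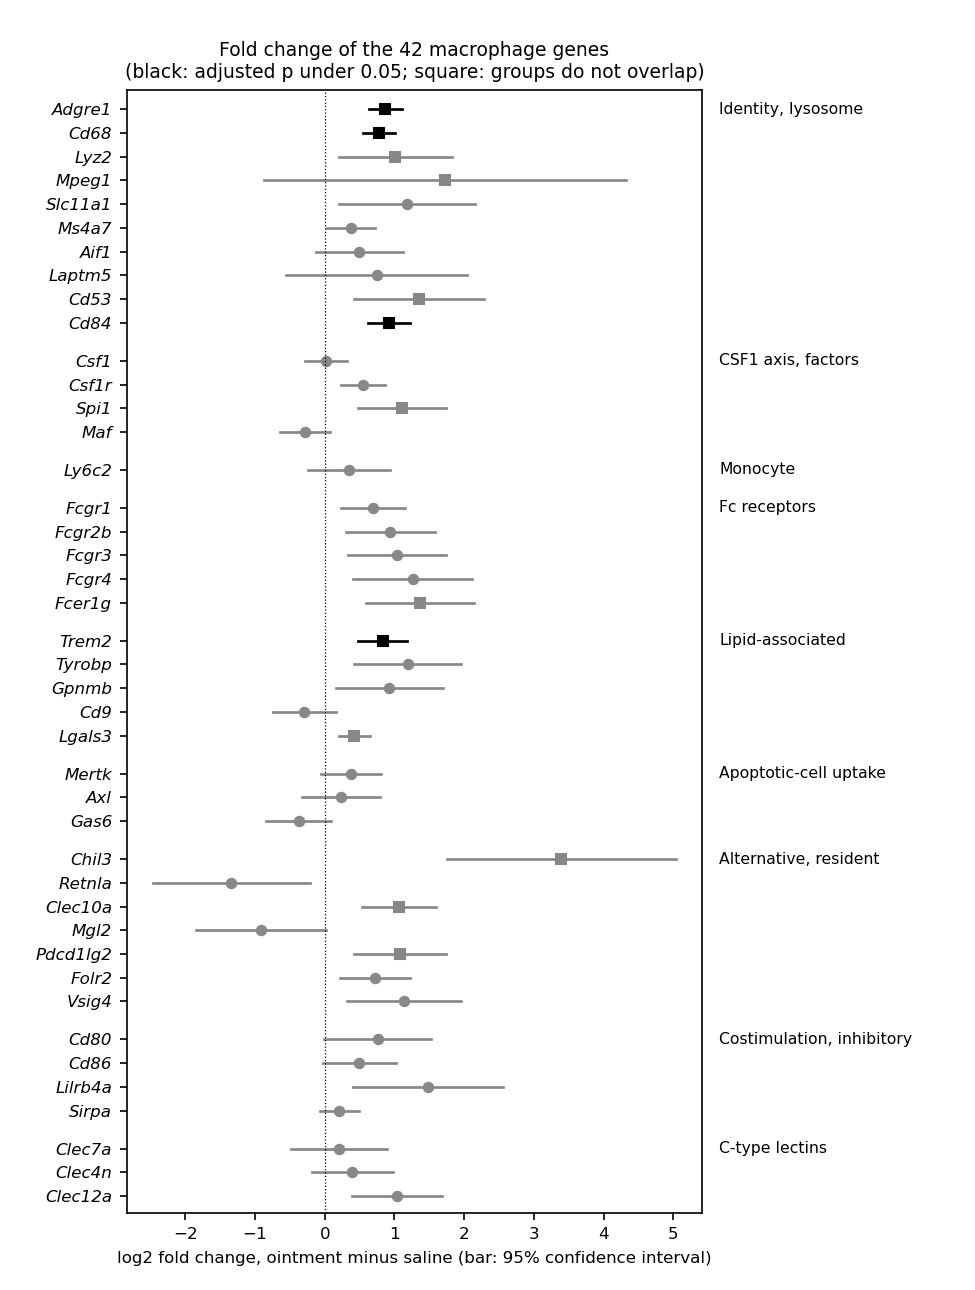
Log2 fold change of each of the 42 members, ointment minus saline, with its 95% confidence interval, grouped by role. Black marks the 4 members with an adjusted p under 0.05, squares the 13 members whose groups did not overlap, and 37 of the 42 points lie above 0.

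Adgre1, which encodes F4/80, the adhesion receptor used as the standard surface marker of mouse macrophages, had 290.5, 267, 291, 264 and 245 CPM in ointment libraries 1 to 5, against 135, 136, 158, 139 and 173 CPM in saline libraries 1 to 5. Every ointment library was above every saline library, and the groups stood far apart for their spread. The gene averaged 271 ± 19.4 CPM in ointment ulcers and 148 ± 17 CPM in saline ulcers (SD, n = 5 each) and rose with a log2 fold change of 0.87 (SE 0.10, edgeR adjusted p = 0.00649). It lies on chromosome 17, 57358691 to 57483527 (GRCm38, plus strand). Cd68, a heavily glycosylated protein of lysosome and endosome membranes, had 270.0, 269.5, 307, 270.1 and 229 CPM in ointment libraries 1 to 5, against 148, 148, 182, 155 and 153 CPM in saline libraries 1 to 5. The groups did not overlap, although ointment library 5 was the lowest of its group and saline library 3 the highest of its own. The log2 fold change of Cd68 (chromosome 11, 69664213 to 69666153, minus strand) was 0.78 (SE 0.11, edgeR adjusted p = 0.0125).

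Cd84, a SLAM family receptor that binds itself on neighbouring leukocytes, had 90.6, 97.2, 105, 82.2 and 124 CPM in ointment libraries 1 to 5, against 52.9, 43.5, 50.6, 60.8 and 55.3 CPM in saline libraries 1 to 5. The lowest ointment library was well above the highest saline library. Its log2 fold change was 0.92 (SE 0.13, edgeR adjusted p = 0.0158), and the gene lies on chromosome 1, 171839697 to 171890718 (plus strand). Trem2, a receptor for lipids and lipoproteins that marks lipid-laden macrophages, had 131, 107, 157, 126 and 127 CPM in ointment libraries 1 to 5, against 81.1, 51.3, 67.4, 78.5 and 86.1 CPM in saline libraries 1 to 5. The groups did not overlap, but ointment library 2 was not far above the highest saline library. Trem2 (chromosome 17, 48346401 to 48354147, plus strand) rose with a log2 fold change of 0.83 (SE 0.16, edgeR adjusted p = 0.0325). Leaving out 1 library at a time kept the calls of Adgre1, Cd68 and Cd84 in all 10 fits. With both saline library 1 and ointment library 5 left out, Adgre1 and Cd68 kept theirs, while Cd84 (adjusted p = 0.0614) and Trem2 (adjusted p = 0.126) did not. Trem2 kept its call in 4 of the 10 and missed it without saline library 1, 3 or 4 or without ointment library 1, 3 or 5, with an adjusted p up to 0.0838.

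**Figure D2:**
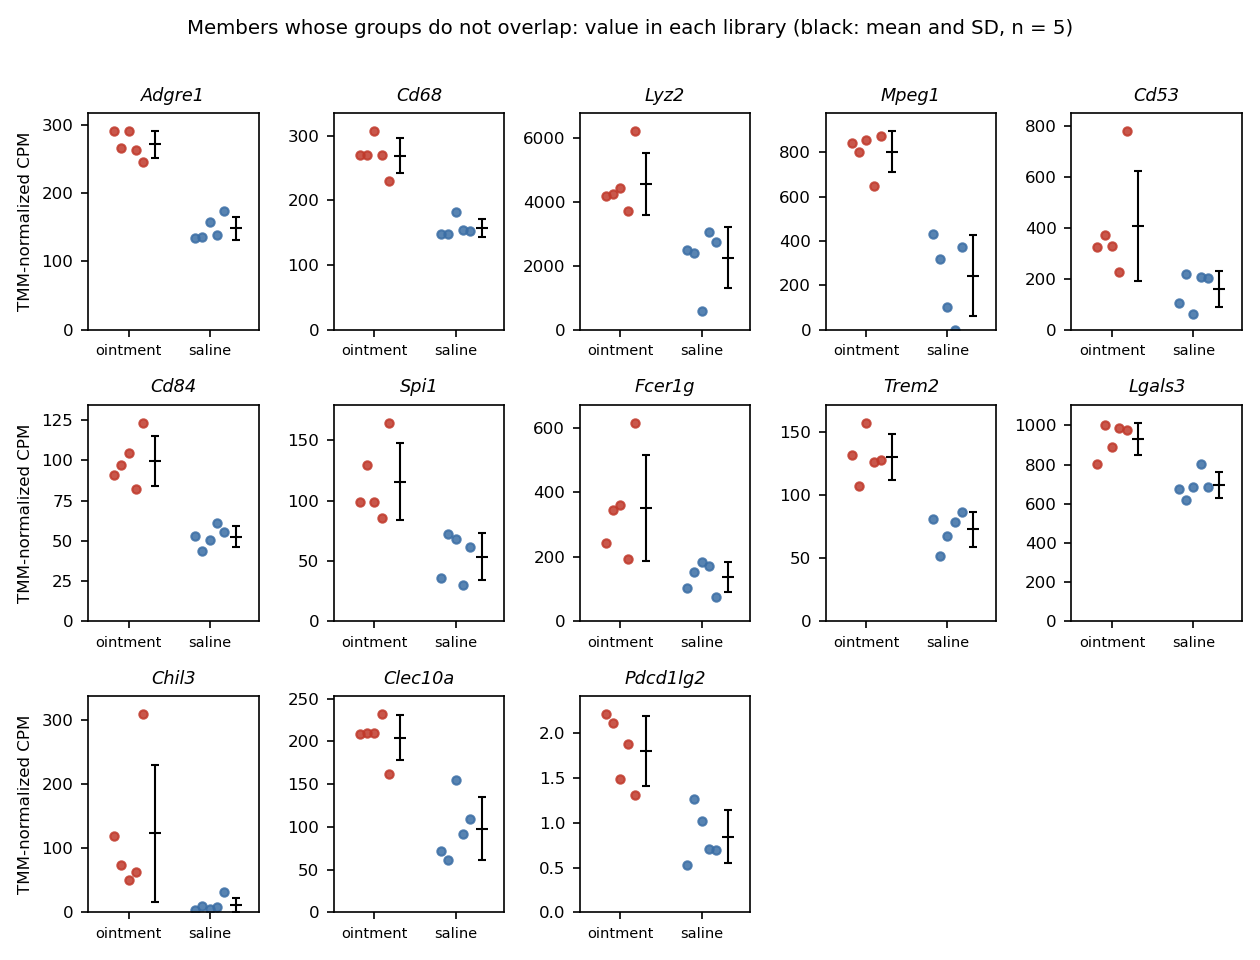
Level of the 13 members whose groups did not overlap, in CPM on a linear axis from 0, with 1 point per library, ointment left and saline right, and the mean and SD in black (n = 5 each). Adgre1, Cd68, Cd84 and Trem2 are the 4 that passed the test, and Chil3 and Cd53 show 1 high ointment library each.

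The 250 bases before the start of 3 of the 4 genes that rose, and of Fcgr4, are shown to place 2 short motifs that are known from myeloid promoters. The first is GAGGAAG, the core bound by PU.1, and the second is TGAGTCA, the AP-1 site. Sequences are from RefSeq (GRCm38.p6), 5′ to 3′ on the gene's strand, and capitals mark either motif on either strand, so that CTTCCTC is GAGGAAG on the opposite strand.
Cd68 (chr11:69666171-69666420, minus strand): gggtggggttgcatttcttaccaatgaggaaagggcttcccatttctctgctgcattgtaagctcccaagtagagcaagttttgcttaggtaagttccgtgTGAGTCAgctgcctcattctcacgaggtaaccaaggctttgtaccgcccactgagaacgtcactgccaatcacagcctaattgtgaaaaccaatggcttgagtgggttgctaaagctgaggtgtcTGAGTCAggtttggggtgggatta
Cd84 (chr1:171839447-171839696, plus strand): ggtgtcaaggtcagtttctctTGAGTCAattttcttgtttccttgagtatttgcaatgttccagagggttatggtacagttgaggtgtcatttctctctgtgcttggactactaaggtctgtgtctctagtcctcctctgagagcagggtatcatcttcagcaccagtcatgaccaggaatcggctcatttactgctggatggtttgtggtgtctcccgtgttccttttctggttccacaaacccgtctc
Trem2 (chr17:48346151-48346400, plus strand): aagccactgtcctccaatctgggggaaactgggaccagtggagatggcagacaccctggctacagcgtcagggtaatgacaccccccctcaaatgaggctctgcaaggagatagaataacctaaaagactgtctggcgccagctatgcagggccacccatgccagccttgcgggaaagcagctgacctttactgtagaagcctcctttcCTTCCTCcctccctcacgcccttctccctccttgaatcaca
Fcgr4 (chr1:171018676-171018925, plus strand): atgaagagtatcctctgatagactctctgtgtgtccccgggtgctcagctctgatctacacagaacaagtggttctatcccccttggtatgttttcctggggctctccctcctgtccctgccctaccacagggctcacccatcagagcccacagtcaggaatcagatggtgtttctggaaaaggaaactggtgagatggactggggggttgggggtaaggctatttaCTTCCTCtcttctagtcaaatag
TGAGTCA began 149 and 24 bases before the start of Cd68 and 229 bases before that of Cd84, and GAGGAAG lay 41 bases before the start of Trem2 and 23 bases before that of Fcgr4. RefSeq promoters were matched for 32 of the 42 members. GAGGAAG was found, on either strand, in 9 of the 32 (28.1%) and in 10.6% of all 32851 promoters in the table, or 12% of its 27025 genes. The members holding it were Laptm5, Ly6c2, Fcgr1, Fcgr3, Fcgr4, Trem2, Axl, Retnla and Clec12a, and only Trem2 of these passed the test. TGAGTCA was found in 3 of the 32 (9.38%; Cd68, Cd84 and Folr2) and in 4.46% of all promoters, or 5.16% of genes. The other 4 motifs searched, on both strands, were GAGGAAGT, which contains the first, in 3 of the 32 (9.38%) and 2.44% of all promoters, and GGAAGT, which overlaps both, in 12 (37.5%) and 19.7%. CACGTG was in 0 of the 32 and 6.02% of all promoters, and the STAT site in 3 (9.38%) and 3.27%. The 6 motifs were picked after the values were known, and a match is a description of the letters, not of binding.

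All 10 lysosomal and surface identity genes had a log2 fold change above 0, with 3 calls (Adgre1, Cd68 and Cd84), and in 6 the groups did not overlap. Lyz2, which encodes lysozyme M, an enzyme against bacterial walls also made by neutrophils, had 4173, 4249, 4434, 3698 and 6207 CPM in ointment libraries 1 to 5, against 2499, 2395, 594, 3050.3 and 2737 CPM in saline libraries 1 to 5. All ointment libraries were above all saline libraries, and saline library 3 was far below the other 4 of its group. Its log2 fold change of 1.01 did not pass edgeR's test (adjusted p = 0.188). Mpeg1, the pore-forming protein perforin-2 of phagosomes, had 842, 800.3, 856, 646 and 872 CPM in ointment libraries 1 to 5, against 431, 318, 100.4, 0.0316 and 371 CPM in saline libraries 1 to 5. Saline library 4 held 2 counts of Mpeg1 while the ointment libraries lay close together, and the test gave a log2 fold change of 1.72 (SE 1.17, edgeR adjusted p = 0.52). Each of Lyz2 and Mpeg1 has 1 annotated transcript and shares no exon base with another gene in GENCODE M21. Exon overlap does not cover reads shared with a near copy elsewhere, such as Lyz1 for Lyz2. Whether the low values are failed estimates was not tested.

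Cd53, a tetraspanin of leukocytes, had 325, 371, 326, 226 and 779 CPM in ointment libraries 1 to 5, against 104, 219.5, 63, 205 and 202 CPM in saline libraries 1 to 5. The groups did not overlap by a narrow margin, and ointment library 5 was far above all other libraries. Its log2 fold change was 1.35 (edgeR adjusted p = 0.133). The other 4 identity genes had groups that overlapped and did not pass edgeR's test. Slc11a1, the metal transporter NRAMP1 of the phagosome, spanned 65.2 to 303 CPM in ointment libraries and 29.7 to 78.2 CPM in saline libraries (log2 fold change 1.18). Ms4a7, a four-span membrane protein of tissue macrophages, spanned 120.0 to 165 CPM in ointment libraries and 80.0 to 134 CPM in saline libraries (log2 fold change 0.38). Aif1, the actin-binding protein Iba1, spanned 35.3 to 81.3 CPM in ointment libraries and 24.2 to 52.6 CPM in saline libraries (log2 fold change 0.50). Laptm5, a lysosomal membrane protein of blood-derived cells, had 168, 58.8, 221, 196 and 66.3 CPM in ointment libraries 1 to 5, against 67.4, 103, 193, 30.8 and 29 CPM in saline libraries 1 to 5, with high and low libraries in both groups.

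Csf1, the growth factor of the lineage, had nearly the same mean in both groups, 75.7 ± 8.41 CPM in ointment ulcers and 74.7 ± 12.8 CPM in saline ulcers (SD, n = 5 each), and its log2 fold change was 0.021 (95% confidence interval -0.28 to 0.33, edgeR adjusted p = 0.966). Its sign was negative with upper-quartile scaling and with library sizes alone. The receptor gene Csf1r had 525, 479, 542, 430.1 and 529.7 CPM in ointment libraries 1 to 5, against 254, 343, 432, 332 and 352 CPM in saline libraries 1 to 5. Saline library 3 reached the lowest ointment library, so the groups overlapped, and the log2 fold change of 0.55 did not pass edgeR's test (adjusted p = 0.0816). Spi1, which encodes PU.1, had 98.6, 129.7, 98.5, 85.8 and 165 CPM in ointment libraries 1 to 5, against 35.8, 72.2, 68.4, 30.1 and 61.4 CPM in saline libraries 1 to 5. Its groups did not overlap, and the log2 fold change was 1.11 (SE 0.28, edgeR adjusted p = 0.0821). Maf, a factor of resident macrophages that is also expressed outside the lineage, averaged 181 ± 28.6 CPM in ointment ulcers and 219.7 ± 41.6 CPM in saline ulcers (SD, n = 5 each), a log2 fold change of -0.28 (edgeR adjusted p = 0.417). Ly6c2, a surface protein of inflammatory monocytes, averaged 15.2 ± 3.23 CPM in ointment ulcers and 11.9 ± 4.15 CPM in saline ulcers (SD, n = 5 each), with overlapping groups and a log2 fold change of 0.35 (edgeR adjusted p = 0.572).

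Of 7 further genes of the CSF1 and GM-CSF receptor axis none passed edgeR's test (2 at an unadjusted p under 0.05, 2 by DESeq2, 0 by limma), and 6 had a log2 fold change above 0. Csf2ra, the alpha chain of the GM-CSF receptor, came nearest, with a log2 fold change of 1.20 (edgeR adjusted p = 0.0592, and 0.0495 without ointment library 4). Il34, the other ligand of the CSF1 receptor, averaged 10.05 ± 4.26 CPM in ointment ulcers and 10.1 ± 3.6 CPM in saline ulcers (SD, n = 5 each). Of 13 further macrophage transcription factors tested none passed edgeR's test (3 at an unadjusted p under 0.05, 2 by DESeq2, 0 by limma), and 10 were above 0. Irf5, a factor of inflammatory macrophages, had a log2 fold change of 0.69 and Irf8, a factor of the monocyte lineage, one of 0.37, while Egr2, an early growth response factor, had one of -1.25 (edgeR adjusted p = 0.117, 0.121 and 0.285).

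All 5 Fc receptor genes had a log2 fold change above 0, and none passed edgeR's test at the adjusted threshold. At an unadjusted p under 0.05 all 5 were higher, DESeq2 called all 5 higher, with adjusted p-values from 0.00408 (Fcer1g) to 0.0322 (Fcgr1), and limma called 0. Fcer1g, the common gamma chain that carries the activating motif for several receptors, had 242, 344, 361, 194 and 617 CPM in ointment libraries 1 to 5, against 102, 151, 183, 170.1 and 74.6 CPM in saline libraries 1 to 5. The lowest ointment library was just above the highest saline library, and the log2 fold change was 1.37 (SE 0.35, edgeR adjusted p = 0.0803). The activating IgG receptors Fcgr1, Fcgr3 and Fcgr4 had log2 fold changes of 0.69, 1.04 and 1.26, and the inhibitory receptor Fcgr2b one of 0.94, with edgeR adjusted p-values from 0.125 to 0.13. In all 4 receptors 1 or more saline libraries reached into the ointment range. The level of Fcgr2b over the sum of the 3 activating receptors was 0.496 to 0.773 in ointment libraries and 0.528 to 0.817 in saline libraries, largely the same range.

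Of 15 genes listed for ITAM signalling behind Fc receptors, Trem2 and Clec7a, with related adapters and regulators of either sign, 14 had a log2 fold change above 0. By edgeR's test 1 passed. At an unadjusted p under 0.05, 12 were higher, DESeq2 called 9 higher, and limma called 2 (Btk and Hcst). Btk, a kinase of this pathway, rose to 30.5 ± 5.12 CPM in ointment ulcers, against 18 ± 3.1 CPM in saline ulcers (SD, n = 5 each; log2 fold change 0.76, edgeR adjusted p = 0.046). That call held in 1 of 10 fits that left out 1 library, the one without ointment library 4, and the adjusted p ran from 0.0471 to 0.104 over the 10. The adapter gene Hcst had a log2 fold change of 0.96 (edgeR adjusted p = 0.0533), the exchange factor Vav1 one of 1.06 (adjusted p = 0.0803), and the kinase Lyn one of 0.88 (adjusted p = 0.107).

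Of the 5 lipid-associated members, Trem2 rose, 4 had a log2 fold change above 0, and in 2 the groups did not overlap. Lgals3, which encodes galectin-3 and is also made by keratinocytes, had 804, 1001, 892, 986 and 977 CPM in ointment libraries 1 to 5, against 674, 620.3, 687, 801 and 686 CPM in saline libraries 1 to 5. Ointment library 1 was only just above saline library 4, and the small log2 fold change of 0.43 (SE 0.10) did not pass edgeR's test (adjusted p = 0.0701). Tyrobp, the adapter DAP12 through which Trem2 signals, had 299, 339, 218, 146 and 525 CPM in ointment libraries 1 to 5, against 111, 103, 93, 177 and 186 CPM in saline libraries 1 to 5. Its ointment libraries were widely spread and the groups overlapped, and its log2 fold change was 1.19 (edgeR adjusted p = 0.115). Gpnmb, a lysosomal glycoprotein of lipid-laden macrophages, had a log2 fold change of 0.93 (edgeR adjusted p = 0.204). Cd9, a tetraspanin found on many cell types, averaged 316 ± 90.4 CPM in ointment ulcers and 386 ± 54 CPM in saline ulcers (SD, n = 5 each; log2 fold change -0.29, edgeR adjusted p = 0.53).

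Of 12 other genes of the lipid-associated state, 3 rose and none fell, and 9 had a log2 fold change above 0. At an unadjusted p under 0.05, 6 were higher, DESeq2 called 6 higher, and limma called 4. Cd36, a scavenger receptor for oxidised lipid that fat and endothelial cells also carry, averaged 779.8 ± 124 CPM in ointment ulcers and 214 ± 47.7 CPM in saline ulcers (SD, n = 5 each), a log2 fold change of 1.87 (SE 0.17, edgeR adjusted p = 0.00205). Plin2, which coats lipid droplets in many cells, averaged 801 ± 96.9 CPM in ointment ulcers and 313 ± 42.5 CPM in saline ulcers (SD, n = 5 each; log2 fold change 1.36, edgeR adjusted p = 0.00205). Both calls held in all 10 fits that left out 1 library. Ctsb, a lysosomal protease, rose with a log2 fold change of 0.52 (edgeR adjusted p = 0.0406), a call held in none of those 10 fits, where the adjusted p ran from 0.0513 to 0.112. Of 17 other macrophage and monocyte genes 9 were higher at an unadjusted p under 0.05, 7 by DESeq2 and 3 by limma. Log2 fold changes were above 0 for 15, and 3 genes rose. They were Itgb2, the beta chain of leukocyte integrins (log2 fold change 1.31, edgeR adjusted p = 0.0159), the lysosomal protease gene Ctss (log2 fold change 0.94, adjusted p = 0.0159) and the lysosomal protease gene Lgmn (log2 fold change 0.78, adjusted p = 0.0307). The call of Lgmn held in 3 of the 10 fits, those without saline library 2 or 5 or ointment library 4, with an adjusted p of up to 0.0796 in the others, and those of Itgb2 and Ctss in all 10. With both saline library 1 and ointment library 5 left out, neither Itgb2 (adjusted p = 0.0508) nor Ctss (adjusted p = 0.08) passed.

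None of the 3 members for uptake of apoptotic cells passed edgeR's test (0 also at an unadjusted p under 0.05, by DESeq2 and by limma), and their groups overlapped. The receptor kinase genes Mertk and Axl had log2 fold changes of 0.38 and 0.23, and Gas6, the ligand that bridges both to phosphatidylserine, one of -0.37 (edgeR adjusted p = 0.357, 0.714 and 0.415). Gas6 spanned 139 to 267 CPM in ointment libraries and 216 to 364 CPM in saline libraries. None of 8 further genes of this uptake passed edgeR's test (3 at an unadjusted p under 0.05, 2 by DESeq2, 0 by limma). The nearest were Cd47, the don't-eat-me ligand of Sirpa, with a log2 fold change of 0.38 (edgeR adjusted p = 0.12), and Anxa1, a phospholipid-binding protein, with one of 0.62 (adjusted p = 0.132). Tyro3, the remaining kinase of the Mertk and Axl family, had one of -0.59 (adjusted p = 0.0837), and DESeq2 called it lower.

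The 7 genes of alternatively activated and resident macrophages differed in direction, with 5 log2 fold changes above 0 and 2 below, and none passed edgeR's test. At an unadjusted p under 0.05, 5 were higher and 1 lower. DESeq2 called the same 5 that lay above 0 higher (Chil3, Clec10a, Pdcd1lg2, Folr2 and Vsig4), and limma called Chil3 and Clec10a higher. Chil3, the chitinase-like protein Ym1, which neutrophils also make, had 119, 74, 50.6, 63.4 and 309 CPM in ointment libraries 1 to 5, against 3.46, 10.1, 5.12, 8.6 and 31.3 CPM in saline libraries 1 to 5. The groups did not overlap, and each held 1 library far above its others, ointment library 5 and saline library 5. The ratio of means was 10.5-fold, with a log2 fold change of 3.39 (SE 0.74, edgeR adjusted p = 0.0533). Without ointment library 5 the log2 fold change was 2.71 (adjusted p = 0.0977), and without saline library 5 it was 4.17 and passed (adjusted p = 0.029). The adjusted p of Chil3 was 1.59e-05 by DESeq2, 0.0318 by limma and 0.046 by edgeR on the values divided by 4. Retnla, the resistin-like molecule alpha, had 6.31, 11.8, 5.9, 7.33 and 7.4 CPM in ointment libraries 1 to 5, against 40.6, 7.17, 26.3, 18.1 and 5.85 CPM in saline libraries 1 to 5. Its saline libraries were widely spread and reached down to the ointment range, and the log2 fold change was -1.34 (SE 0.50, edgeR adjusted p = 0.207). The level of Retnla over that of Chil3 was 0.0239 to 0.159 in ointment libraries and 0.187 to 11.7 in saline libraries, ranges that did not overlap. Chil3 alone already separated the groups, so this ratio adds no separate result, and it was not tested.

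Clec10a and Mgl2 encode neighbouring galactose-type lectins. Clec10a had 209, 209.9, 209.5, 232 and 162 CPM in ointment libraries 1 to 5, against 72, 61.8, 155, 91.2 and 109 CPM in saline libraries 1 to 5. The lowest ointment library was just above saline library 3, and the log2 fold change was 1.06 (SE 0.24, edgeR adjusted p = 0.0578). Without saline library 3 it was 1.28 and passed (adjusted p = 0.0269), and the adjusted p was 0.00102 by DESeq2 and 0.0318 by limma. Mgl2, which is also a marker of dermal dendritic cells, had 2.94, 5.12, 3.55, 5.41 and 5.09 CPM in ointment libraries 1 to 5, against 15.2, 2.94, 4.35, 10.2 and 8.97 CPM in saline libraries 1 to 5. Its groups overlapped, with a log2 fold change of -0.91 (edgeR adjusted p = 0.304). Mgl2 over Clec10a was 0.0141 to 0.0315 in ointment libraries and 0.0281 to 0.212 in saline libraries, and because the 2 genes are alike in sequence, the split of reads between them is uncertain. Pdcd1lg2, the PD-1 ligand PD-L2, was low, with 2.22, 2.11, 1.49, 1.88 and 1.31 CPM in ointment libraries 1 to 5, against 0.533, 1.27, 1.02, 0.712 and 0.694 CPM in saline libraries 1 to 5. The lowest ointment library was barely above the highest saline library (log2 fold change 1.09, edgeR adjusted p = 0.0987). Folr2, the folate receptor beta of resident macrophages, and Vsig4, a complement receptor, had log2 fold changes of 0.72 and 1.14 with overlapping groups (edgeR adjusted p = 0.14 and 0.149). Folr2 passed without saline library 3 (log2 fold change 0.95, adjusted p = 0.044).

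None of 10 other genes of alternative activation passed edgeR's test (4 at an unadjusted p under 0.05, 2 by DESeq2, 0 by limma). None of 10 genes of classical activation did either (3 at an unadjusted p under 0.05, 2 by DESeq2, 0 by limma), and 9 of each list had a log2 fold change above 0. Arg1, the arginase of alternatively activated macrophages, averaged 1351 ± 977 CPM in ointment ulcers and 246 ± 198 CPM in saline ulcers (SD, n = 5 each; log2 fold change 2.46, edgeR adjusted p = 0.143). Il6, an inflammatory cytokine, averaged 30.5 ± 38.2 CPM in ointment ulcers and 3.11 ± 2.56 CPM in saline ulcers (SD, n = 5 each; log2 fold change 3.29, adjusted p = 0.116), and Nos2, the inducible nitric oxide synthase, 142 ± 194 CPM in ointment ulcers and 20.5 ± 14.3 CPM in saline ulcers (log2 fold change 2.79, adjusted p = 0.207). Of the near copies and family neighbours of the members, 12 of 14 were tested, 7 with a log2 fold change above 0 and 5 below. At an unadjusted p under 0.05, 5 were higher and 2 lower, DESeq2 called 5 higher and 2 lower, and limma called 1 higher. By edgeR's test 1 rose, the lectin gene Clec4a2, with a log2 fold change of 1.03 (edgeR adjusted p = 0.0354). That call held in 3 of 10 fits that left out 1 library, those without saline library 5 or ointment library 1 or 4, with an adjusted p of up to 0.0898 in the others. Lyz1, the near copy of Lyz2, had one of 1.05 (adjusted p = 0.0821), and Lilr4b, the near copy of Lilrb4a, one of 1.67 (adjusted p = 0.141), so the counts of these pairs are uncertain.

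The 4 costimulatory and inhibitory genes and the 3 C-type lectins all had log2 fold changes above 0 and overlapping groups, and none passed edgeR's test. Lilrb4a and Clec12a were the 2 at an unadjusted p under 0.05 and the 2 that DESeq2 called higher (adjusted p = 0.0268 and 0.0137), and limma called 0. Lilrb4a, an inhibitory receptor, had 253, 497, 404, 242 and 979 CPM in ointment libraries 1 to 5, against 55.6, 237, 162, 255 and 138 CPM in saline libraries 1 to 5. Saline library 4 was above ointment library 4, and ointment library 5 was far above all others (log2 fold change 1.49, edgeR adjusted p = 0.149). Cd80 and Cd86, the ligands of CD28 and CTLA-4, had log2 fold changes of 0.76 and 0.50, and Sirpa, the receptor of Cd47, one of 0.21 (edgeR adjusted p = 0.297, 0.323 and 0.456). Clec12a, an inhibitory lectin, had one of 1.03 (adjusted p = 0.107), and Clec4n, the fungal receptor Dectin-2, one of 0.40 (adjusted p = 0.499). Clec7a, the beta-glucan receptor Dectin-1, had 12.7, 10.1, 8.8, 10.7 and 25.9 CPM in ointment libraries 1 to 5, against 11.3, 11.3, 16.9, 10.7 and 9.1 CPM in saline libraries 1 to 5. Its log2 fold change was 0.20, and it was -0.16 without ointment library 5 (edgeR adjusted p = 0.821 and 0.819).

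Ointment library 5 was the highest of the ointment group for 18 members and the lowest for 11. Ointment library 4 was the lowest of its group for 15 members. In the saline group, library 1 was the lowest for 14 members. How often these libraries were highest or lowest over all genes tested was not counted, so the counts may not be particular to the members. Ointment library 5 was 4.5 times the median of the other 4 ointment libraries for Chil3, 3.43 times for Slc11a1, 2.98 times for Lilrb4a and 2.39 times for Cd53. For Vsig4 it was 0.45, for Gpnmb 0.59, for Gas6 0.602 and for Adgre1 0.88 times that median. The summed level of 15 neutrophil markers was also highest there, with 2749.7, 5752, 3841, 2071 and 9644 CPM in ointment libraries 1 to 5, against 912, 2269.6, 1647, 3175 and 1291 CPM in saline libraries 1 to 5. Of the 14 neutrophil markers tested, 13 had a log2 fold change above 0 and 1 rose, Mmp9, a matrix protease that macrophages also make (log2 fold change 2.14, edgeR adjusted p = 0.0143). At an unadjusted p under 0.05, 10 of the 14 were higher and 0 lower, DESeq2 called 8 higher, and limma called 1. The median log2 fold change of the neutrophil markers was 1.54, against 0.77 for the members. The granule genes Elane and Mpo, which are made by precursors in bone marrow, were under 1 CPM in all 10 libraries. Neutrophils express several of the members, and their part in the differences was not tested.

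**Figure D3:**
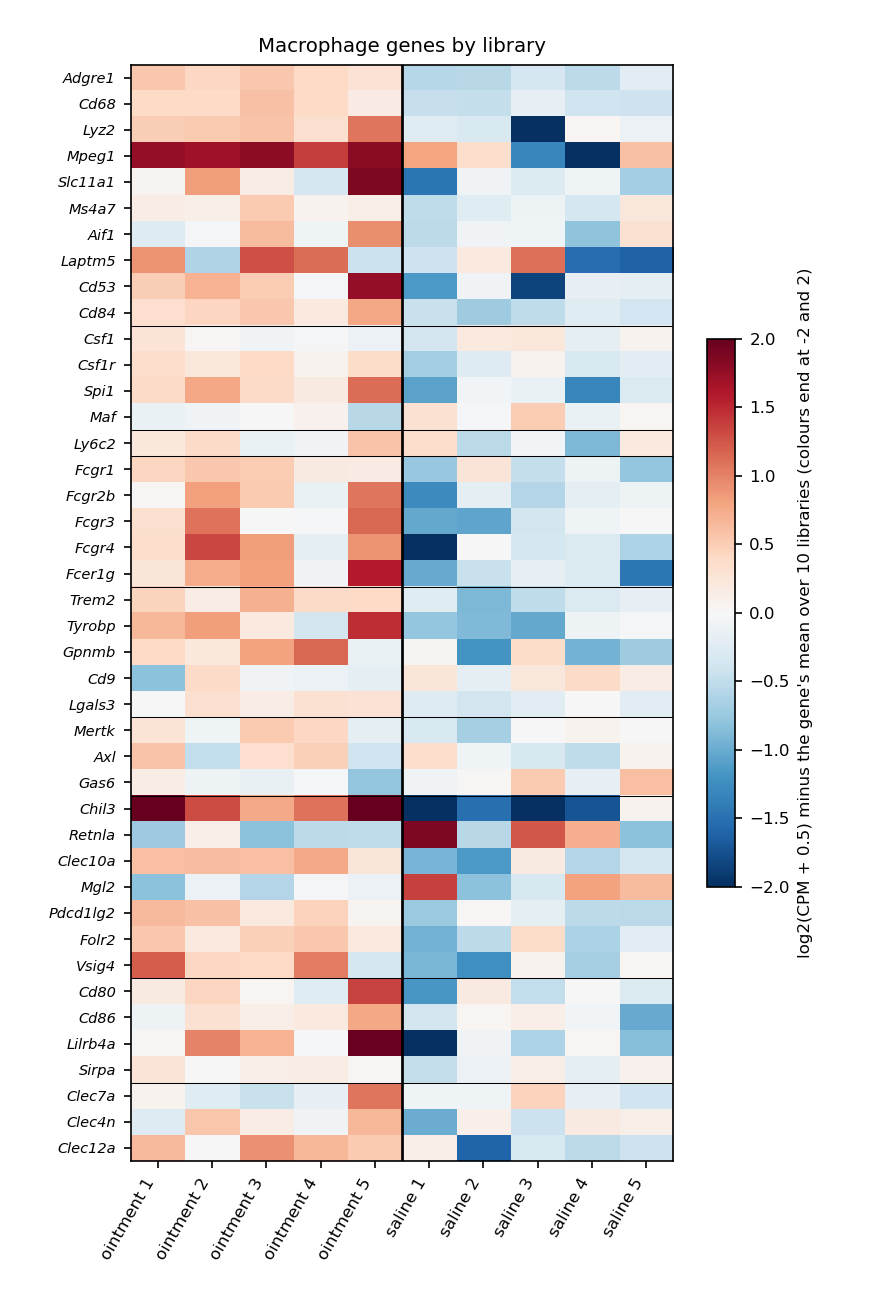
Level of each member in each library as log2(CPM + 0.5) minus the gene's mean over the 10 libraries, with colours ending at -2 and 2, ointment libraries left of the black line and saline libraries right of it. Ointment library 5 is the highest of its group for 18 members and the lowest for 11, with the shares over all genes not counted. Mpeg1 in saline library 4 and Lyz2 in saline library 3 stand out as low.

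The spread within a group also differed between members. The coefficient of variation was 7.15% in ointment ulcers and 11.4% in saline ulcers for Adgre1 and 10.2% in ointment ulcers and 9.07% in saline ulcers for Cd68. It was 86.8% in ointment ulcers and 96% in saline ulcers for Chil3 and 11.4% in ointment ulcers and 75.7% in saline ulcers for Mpeg1. Set against Adgre1 within each library, Cd68 was 0.93 to 1.05 in ointment libraries and 0.882 to 1.15 in saline libraries, and Trem2 was 0.401 to 0.541 in ointment libraries and 0.378 to 0.602 in saline libraries, so both kept largely the same range. Maf over Adgre1 was 0.543 to 0.787 in ointment libraries and 1.17 to 1.81 in saline libraries, ranges that did not overlap. Adgre1 alone already separated the groups, and Maf did not pass edgeR's test. Csf1r over Adgre1 was 1.63 to 2.16 in ointment libraries and 1.88 to 2.73 in saline libraries, ranges that overlapped. The ranges of Folr2, Clec10a, Tyrobp and Axl over Adgre1 overlapped too. These ratios are descriptions and were not tested.

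Per length, Lyz2 was the most abundant member, with 3459 ± 732 CPM per kb in ointment ulcers and 1714 ± 731 CPM per kb in saline ulcers (SD, n = 5 each). Lgals3, Tyrobp and Fcer1g followed in ointment ulcers, and their order there lay within their spread. Lgals3 had 502 ± 44.7 CPM per kb in ointment ulcers and 373 ± 35.5 CPM per kb in saline ulcers, and Tyrobp had 458 ± 216 CPM per kb in ointment ulcers and 201 ± 66.3 CPM per kb in saline ulcers. Among the 4 that rose, Cd68 was the most abundant with 214 ± 21.8 CPM per kb in ointment ulcers and 125 ± 11.3 CPM per kb in saline ulcers, followed by Adgre1 with 83.8 ± 5.99 CPM per kb in ointment ulcers and 45.8 ± 5.24 CPM per kb in saline ulcers. Pdcd1lg2 was the lowest with 0.918 ± 0.201 CPM per kb in ointment ulcers and 0.432 ± 0.151 CPM per kb in saline ulcers. Chil3 stood at place 15 of 42 in ointment ulcers and at place 33 in saline ulcers, and Retnla at place 33 and at place 18.

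**Figure D4:**
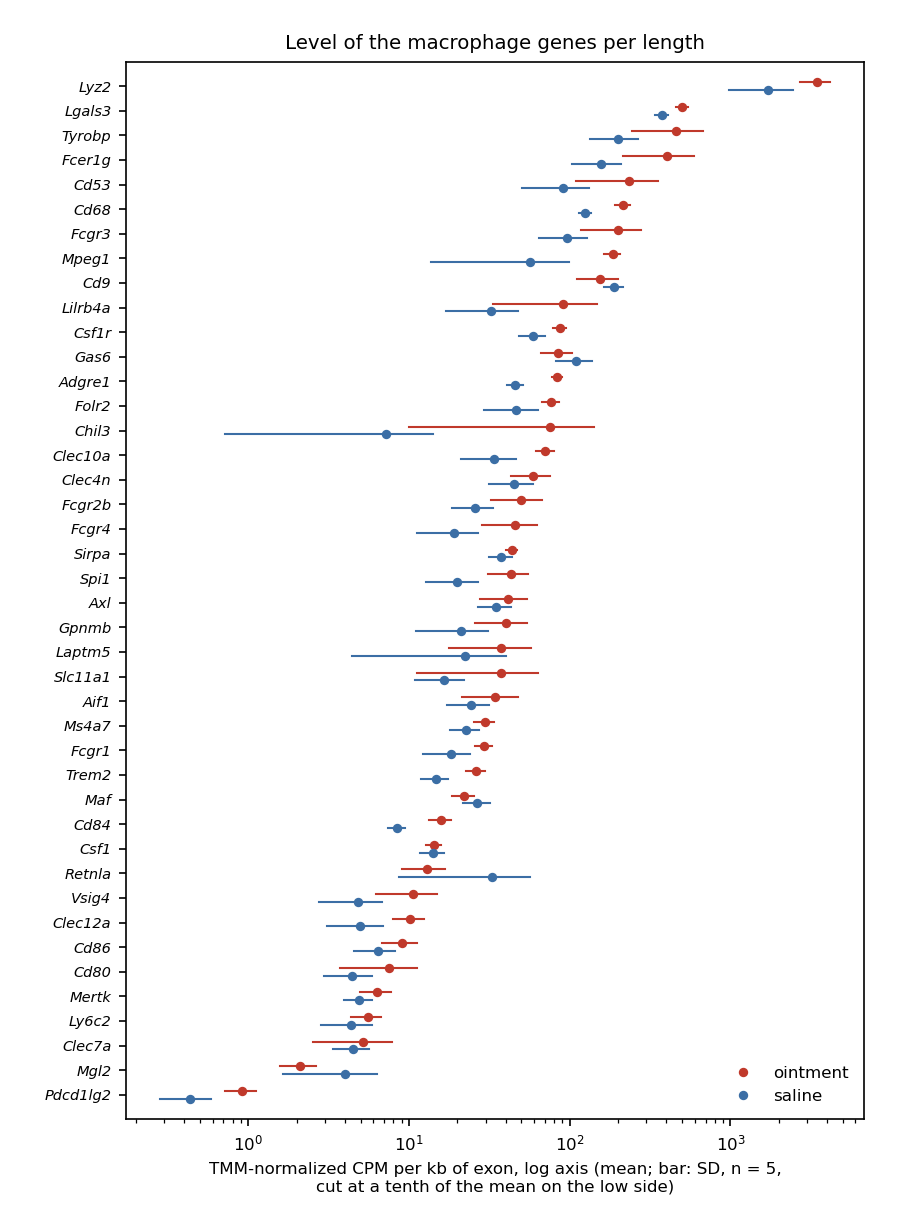
Level of each member in CPM per kb of exon on a log axis, with the mean and SD of the ointment libraries above and of the saline libraries below (n = 5 each). Lyz2 is at the top and Pdcd1lg2 at the bottom, and most ointment points lie right of the saline points.

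The summed level of the 42 members was 10711 to 16067 CPM in ointment libraries and 5829 to 7972 CPM in saline libraries, ranges that did not overlap. Lyz2 alone made up 3698 to 6207 CPM in ointment libraries and 594 to 3050.3 CPM in saline libraries. Without Lyz2 the sum was 7013 to 9861 CPM in ointment libraries and 4457 to 5236 CPM in saline libraries, again without overlap. Marker lists of other cells in the same tissue gave calls in both directions. None of 8 keratinocyte markers passed edgeR's test (4 lower at an unadjusted p under 0.05, 3 lower by DESeq2, 1 lower by limma), but all 8 had a log2 fold change below 0, and their sum was 12470.4 to 20542 CPM in ointment libraries and 17619 to 25435 CPM in saline libraries. Of 8 hair follicle markers 7 fell, and their sum was 12.4 to 39.1 CPM in ointment libraries and 36 to 682 CPM in saline libraries. Of those 7 calls, Krt28 held in 2 of 10 fits that left out 1 library, Krt25 in 6 and Krt73 in 9, DESeq2 made all 7, and limma made 2 (Hoxc13 and Lef1). Of 6 smooth muscle and pericyte markers all 6 had a log2 fold change below 0, in 3 every ointment library was below every saline library, and 1 fell, Myh11, the smooth muscle myosin (log2 fold change -0.83, edgeR adjusted p = 0.04), a call held in none of the 10 fits that left out 1 library. Their sum was 464 to 1043 CPM in ointment libraries and 977 to 1444 CPM in saline libraries. All 8 endothelial markers had a log2 fold change below 0 and none passed edgeR's test (3 at an unadjusted p under 0.05, 1 by DESeq2, 0 by limma), with sums of 448 to 743 CPM in ointment libraries and 651 to 926 CPM in saline libraries. Of 6 adipocyte markers, Lep, the leptin gene, rose (log2 fold change 4.16, edgeR adjusted p = 0.0347) and Cfd, adipsin, fell (log2 fold change -2.80, edgeR adjusted p = 0.0384), with calls held in 2 and 1 of the 10 fits and sums of 271 to 464 CPM in ointment libraries and 333 to 1129.8 CPM in saline libraries. Mast cell, eosinophil, B cell and skeletal muscle lists gave no calls by edgeR or limma, and DESeq2 called 1 mast cell marker higher and 1 lower. Fibroblast markers gave no calls by edgeR, DESeq2 or limma (3 at an unadjusted p under 0.05), with sums of 18112 to 59116 CPM in ointment libraries and 36008 to 54755 CPM in saline libraries. Of 10 dendritic and Langerhans cell markers 1 fell, Cd207, the Langerhans cell lectin langerin (4.98 ± 1.08 CPM in ointment ulcers and 10.3 ± 1.68 CPM in saline ulcers, SD, n = 5 each; log2 fold change -1.05, edgeR adjusted p = 0.0343), in a call held in 1 of 10 fits that left out 1 library, the one without ointment library 4 (adjusted p up to 0.0851 in the others). T and natural killer cell markers gave no calls by edgeR, DESeq2 or limma (0 at an unadjusted p under 0.05), with sums of 27.4 to 43.7 CPM in ointment libraries and 35.7 to 47.8 CPM in saline libraries. Of 7 genes of all leukocytes 2 rose, Itgb2 and Rac2, a small GTPase of blood cells, and all 7 were above 0. This list is not separate from those above, since it holds the members Cd53 and Laptm5, and Itgb2 was already counted among the other macrophage genes. The call of Rac2 held in 1 of 10 fits that left out 1 library, the one without ointment library 4, with an adjusted p of up to 0.0819 in the others. The B cell markers Cd79a, Ms4a1 and Pax5 were under 1 CPM in all libraries, and the eosinophil peroxidase gene Epx was listed at 0 in all 10. The part of tissue composition in the members' differences was not tested.

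**Figure D5:**
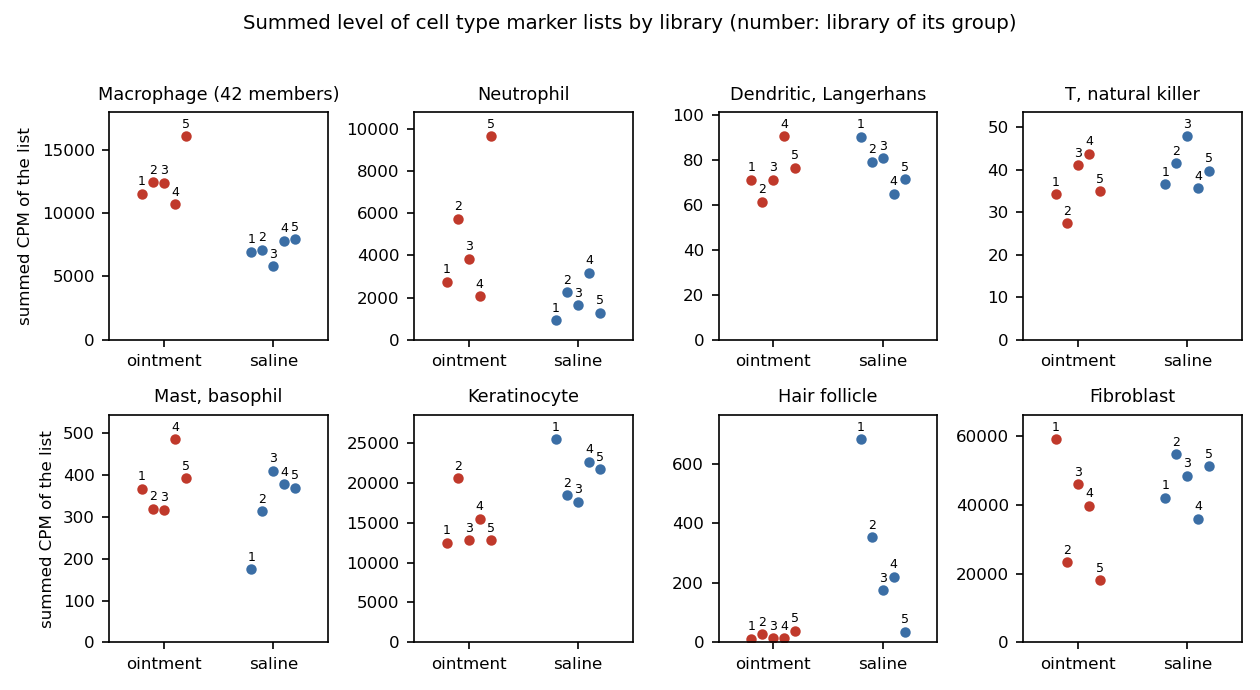
Summed CPM of the 42 members and of marker lists of other cell types, with 1 numbered point per library, ointment left and saline right, on linear axes from 0. The member sums do not overlap, ointment library 5 is the highest for the neutrophil list, and the hair follicle sums are lower in most ointment libraries.

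Of the 42 members, 7 share exon bases with another annotated gene: Csf1r, Maf, Fcgr2b, Cd9, Gas6, Folr2 and Lilrb4a. The counting is not stated to use strand, so reads of overlaps on opposite strands cannot be told apart. Lilrb4a also overlaps a gene on its own strand, Gm49339, and strand would not separate those reads.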

How the data were processed

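RNA of ulcer tissue from db/db mice was sequenced in 10 libraries, prepared with SMARTer chemistry per the labels' protocols. The submitters' processing notes name GRCm38, also called mm10, as the genome. Which aligner, counting program and annotation made the values is not given in the sources used here. Whole-number values were deposited by the authors and treated as estimated counts, because multiples of 4 are over-represented at low values (the value 4 occurred 9202 times and 3 occurred 4235 times). They needed no rounding, so the test planned for counts was kept. Each column matched a label, and no 2 columns were identical.

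R 4.3.3 was used with edgeR 4.0.16: filterByExpr (minimum count 10, minimum total 15), TMM scaling, a robust quasi-likelihood fit of the 2 groups and Benjamini-Hochberg adjustment over 18509 genes. Alternatives included limma 3.58.1 and DESeq2 1.42.0, other scalings and filters, a replicate block and leaving out libraries. The procedure was tested on simulated data. Gene models came from GENCODE M21. The members and gene lists were chosen with earlier results of these data known. All members are accounted for, with library values for those past the threshold or not overlapping and for others where the text turns on them. Of the paralog and pathway lists, genes past the threshold and otherwise up to 4 with the smallest p were eligible. Of the cell type lists, those past the threshold or near 0 were. Il34, Lilr4b, Cebpb and C1qa fall outside this rule and were named after their values were seen. So do Hcst, Vav1, Lyn, Lyz1 and Tyro3, whose lists held a gene past the threshold.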

Additional observations from a re-analysis of the deposited data

Results flagged for a closer look

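Among 84 sets of 5 values (42 members in 2 groups), 9 held a library that stood apart from the other 4 by Dixon's criterion for 5 values. Chance gives about 1 in 20 for independent, normally distributed values. These were linear CPM values and the sets share the same 10 libraries, so that rate is only a rough guide. In the ointment group, library 5 stood apart for Chil3 at 309 CPM (the others 50.6 to 119 CPM), for Cd53 at 779 CPM (226 to 371 CPM) and for Clec7a at 25.9 CPM (8.80 to 12.7 CPM). Ointment library 3 stood apart for Ms4a7 at 165 CPM (120.0 to 127 CPM), and ointment library 2 for Retnla at 11.8 CPM (5.90 to 7.40 CPM). In the saline group, library 3 stood apart for Cd68 at 182 CPM (148 to 155 CPM), for Clec7a at 16.9 CPM (9.10 to 11.4 CPM) and, on the low side, for Lyz2 at 594 CPM (2395 to 3050.3 CPM). Saline library 5 stood apart for Chil3 at 31.3 CPM (3.46 to 10.1 CPM).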

How the results depend on the processing

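Across 21 alternatives the median log2 fold change of the members lay between 0.65 and 0.83, no member was called lower, and 873 of 881 member results kept their direction. The number of members called higher, 4, was 21 with DESeq2, 0 with a replicate block and 2 (Adgre1 and Cd68, with Cd84 and Trem2 lost) with 4 libraries per group (without saline library 1 and ointment library 5), and 3 to 5 when 1 library was left out. The number of all genes called, 310, was 1682 with DESeq2, 0 with the replicate block, 59 with 4 libraries per group and 102 to 422 when 1 library was left out. Over all genes, same-numbered libraries varied together little: the correlations of their deviations were 0.069, 0.039, -0.077, -0.101 and -0.051, and 1 of 5 ointment libraries correlated best with its own number. A pairing that touches only part of the genes was not tested. The Csf1 log2 fold change was -0.0073 with upper-quartile scaling, -0.032 with library sizes alone and -0.026 with 4 libraries per group, and ran from -0.069 to 0.086 when 1 library was left out, below 0 without saline library 1 or 4 or ointment library 1. That of Clec7a was -0.18 with 4 libraries per group and ran from -0.16 (without ointment library 5) to 0.35, and that of Csf2 from -0.024 (without ointment library 5) to 1.16. The causes were not tested. With a mean of at least 5 CPM required, Pdcd1lg2 had no value. With 5 libraries per group, genes that vary as widely as Chil3 or Mpeg1 need large differences to pass, and a p that misses the threshold does not show that groups were alike.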

Other observations

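Some macrophage genes outside the 42 changed level abruptly between libraries of the same group. Cebpb, a factor of myeloid cells, had 88.8, 97.4, 0, 49 and 0 CPM in ointment libraries 1 to 5, against 31.3, 56.8, 0, 0 and 0 CPM in saline libraries 1 to 5. C1qa, a chain of complement C1q that macrophages make, was never at 0 but had 167, 139, 894, 645 and 140.4 CPM in ointment libraries 1 to 5, against 73.2, 109, 127, 454 and 138 CPM in saline libraries 1 to 5. The differences of these genes did not pass edgeR's test (adjusted p = 0.831 and 0.455), and whether the values of 0 are failed estimates was not tested.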
